A study of Caenorhabditis elegans with 44 samples.

Results

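The effect of losing *pals-22* was measured in animals that had already lost *rrf-3*. The contrast used 5 of the 44 libraries of the series, chosen by the genotype in their labels: 2 double-mutant libraries, *rrf-3(pk1426); pals-22(pig26)*, and 3 single-mutant libraries, *rrf-3(pk1426)*. Both groups carried *rrf-3(pk1426)* in the N2 background, so that they differed in *pals-22(pig26)* alone as labelled. The *pig26* allele is a deletion near the start of *pals-22* made by genome editing. Poly(A) RNA came from whole worms that were synchronized as L1 larvae and held without food overnight, and it was sequenced from both ends. The same table held 3 *pals-22(pig26)* and 2 wild-type N2 libraries, which shared no library with the main contrast and gave the effect of *pals-22(pig26)* where *rrf-3* was intact. No source used here states that replicate libraries came from separate cultures, so p-values measure the spread between these libraries, which may be technical.

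PALS-22 and PALS-25 belong to the *pals* family, a group of proteins that has expanded in *C. elegans*. PALS-22 holds the intracellular pathogen response (IPR) off and PALS-25 turns it on. The IPR is a set of genes that microsporidia and the Orsay virus induce in the intestine and epidermis, and it includes many *pals* genes and parts of a cullin ubiquitin ligase. RRF-3 is the RNA-dependent RNA polymerase that makes the templates of 26G siRNAs, and animals without it respond more strongly to exogenous RNAi.

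The libraries were deep. The deposited values summed to 55449859 and 47171977 in the double mutant and to between 41843772 and 61806727 in *rrf-3*. Levels are given as CPM, the deposited value of a gene per 1000000 of the library's total, after scaling by trimmed mean of M values (TMM) factors. From the low values, the deposited values appear to be adjusted for transcript length, which no source used here states, and comparisons of CPM between genes assume it. The 2 double-mutant libraries stood apart from each other: over log CPM their correlation was 0.961, while double-mutant replicate 1 correlated at 0.961 to 0.964 with the *rrf-3* libraries. Double-mutant replicate 2 correlated at 0.939 to 0.942 with *rrf-3*. With the *pals-22* libraries, replicate 1 correlated at 0.907 to 0.932 and replicate 2 at 0.944 to 0.951. Transcripts of later stages differed between the 2 double-mutant libraries. The adult-type collagens given here were picked after the values were seen. The summed level of 7 adult-type collagens was 4.03 CPM in double-mutant replicate 1 and 548 CPM in replicate 2, against 2.37 to 6.60 CPM in *rrf-3*. Summed sperm transcripts (54 genes) were at 17.7 and 324 CPM in the double mutant and at 15.3 to 40.3 CPM in *rrf-3*, and vitellogenins (6 genes) at 4.39 and 55.3 CPM against 1.29 to 2.12 CPM. The *pals-22* libraries held them too, with 205 to 585 CPM of the collagens and 451 to 1596 CPM of the sperm transcripts. Wild type had 46.6 and 10.6 CPM of the collagens and 133 and 40.4 CPM of the sperm transcripts. The *pals-22* against wild-type contrast and the interaction therefore include these transcripts, with 44 of 53 sperm genes called higher in that contrast. The part of these transcripts in the results was not tested, and some counts are given without double-mutant replicate 2 below. The overlaps with *pals-22* against wild type and the promoter, neighbour, run and chromosome results use all libraries only. The summed *pals* family (37 genes without *pals-22*) was nearly equal in both double-mutant libraries, at 6855 and 6814 CPM.

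**Figure D1:**
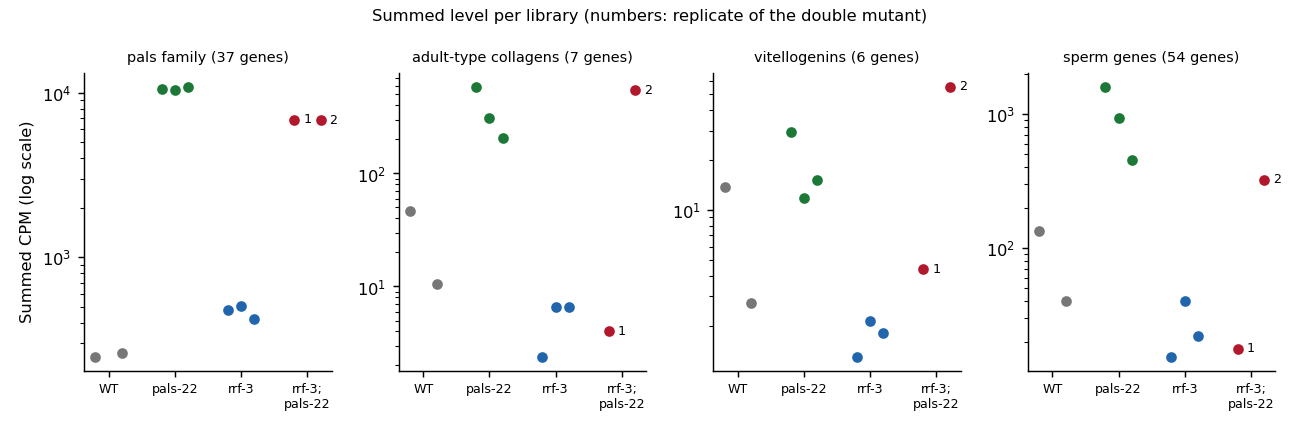
Summed CPM (log axis) of the *pals* family, 7 adult-type collagens, 6 vitellogenins and 54 sperm genes in each library, 1 point per library, by genotype; the numbers mark the 2 double-mutant replicates. The *pals* sum is nearly equal in both, at 6855 and 6814 CPM, while the collagen sum is 4.03 CPM in replicate 1 and 548 CPM in replicate 2. The collagens were picked after the values were seen.

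The mutated genes were examined first. *pals-22* (chromosome III, positions 132418 to 134401 in WBcel235) was at 21, 21.5 and 22.3 CPM in *rrf-3* and at 44.5 and 44.7 CPM in the double mutant. Transcripts over the whole gene were thus higher in both libraries that carry the deletion, by a log2 fold change of 1.05 ± 0.07 (SE, adjusted p = 1.13e-05, edgeR quasi-likelihood test). Gene totals do not show the deletion itself and do not check the label. *pals-25*, which follows *pals-22* on the same strand at positions 134494 to 137975, rose by nearly the same factor, from 11.3, 10.6 and 12.2 CPM to 25.3 and 24.1 CPM (log2 fold change 1.12 ± 0.07, adjusted p = 1.06e-05). *rrf-3* itself was low in both groups, at 1.90 to 1.98 CPM in *rrf-3* and 1.65 and 1.80 CPM in the double mutant, beside 5.45 and 6.29 CPM in wild type. Its reads cannot be separated here from those of the overlapping T05C12.11.

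Of 18986 genes tested, 996 were called higher in the double mutant (5.25% of the genes tested) and 419 lower (2.21%), at an adjusted p under 0.1. With library totals in place of TMM factors the median of all genes moved from a log2 fold change of -0.01 to -0.17, 703 genes were called higher and 719 lower, and the share of calls that were higher fell from 70.4% to 49.4%. The larger changes went mostly one way. By over 4-fold, 375 genes rose (1.98% of the genes tested) and 17 fell (0.0895%). The median log2 fold change was 1.36 among the genes called higher and -0.60 among those called lower. Without double-mutant replicate 2, 616 genes were called higher and 82 lower, of which 610 and 77 were also called with all libraries. Without double-mutant replicate 1 the counts were 993 and 190. The lower calls also moved with the controls: 175 were made without *rrf-3* replicate 1, and 682 were made without *rrf-3* replicate 3, which raised the higher calls to 1659. In every fit that left out 1 library of either group, 572 genes were called higher and 60 lower. In 40 of the 996 higher genes the level in replicate 2 was over 4 times that in replicate 1. All 40 were among the 375 genes that rose by over 4-fold.

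The genes that rose by over 4-fold were mostly those that *pals-22(pig26)* raised alone. In the *pals-22* against wild-type contrast, 4422 genes were called higher (23.3% of those tested) and 5280 lower (27.8%). Of the 375 genes that rose by over 4-fold in the double mutant, 350 were also called higher there, which is 93.3% of the 375 and 7.91% of the 4422. Of all 996 higher genes, 766 were called higher there (76.9%, and 17.3% of the other list) and 71 lower. Of the 419 lower genes, 246 were called lower there (58.7%, and 4.66% of the other list) and 66 higher. Over all genes tested, Spearman's rho between the 2 log2 fold changes was 0.14, as a description across genes. In whole worms, fewer cells of a type and less RNA per cell cannot be told apart.

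**Figure D2:**
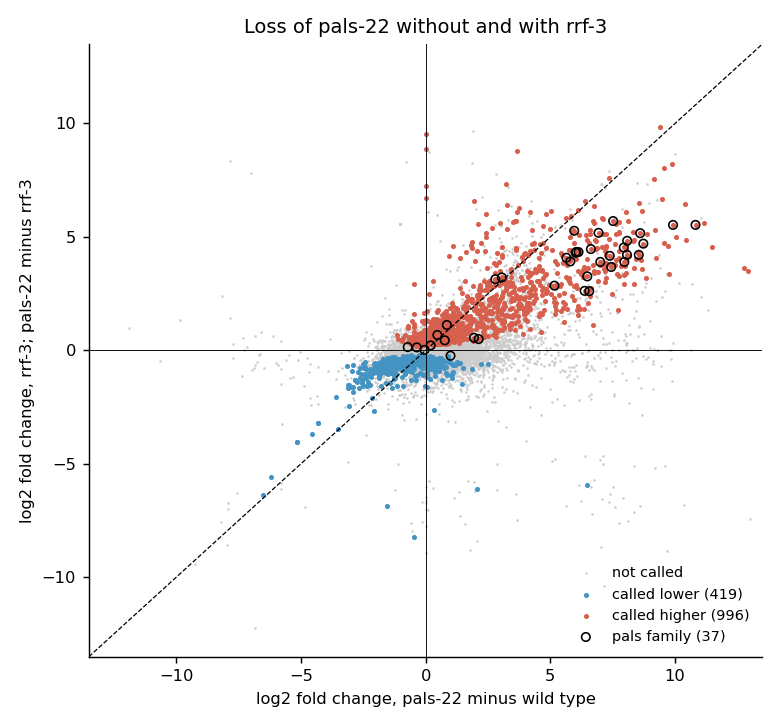
Log2 fold change of each gene tested for *rrf-3; pals-22* minus *rrf-3* (vertical) against *pals-22* minus wild type (horizontal); red points were called higher in the double mutant (996), blue lower (419), rings mark the 37 *pals* genes and the dashed line marks equal change. Most rings lie right of the dashed line, at a median of 3.90 on the vertical and 6.13 on the horizontal axis.

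The *pals* genes made up the clearest group. Of 37 tested, 32 rose (86.5%, against 5.25% of all genes tested) and none fell. The median log2 fold change was 3.90 where the median of all genes was -0.01, and 27 rose by over 4-fold. *pals-5*, the gene whose promoter is commonly used as an IPR reporter, was at 10.7, 10.05 and 8.02 CPM in *rrf-3* and at 251 and 247 CPM in the double mutant. The groups were far apart (log2 fold change 4.70 ± 0.14, adjusted p = 6.16e-08). *pals-33* showed the largest rise of the family, from 14.3, 16.36 and 12.4 CPM to 739 and 751 CPM (5.70 ± 0.12, adjusted p = 1.50e-08). *pals-14* was the most abundant member in the double mutant, at 777 and 787 CPM against 45.9, 47.1 and 37.7 CPM (4.17 ± 0.12). The smallest change called was that of *pals-17*, a negative regulator of the IPR, from 17.8, 21.9 and 17.3 CPM to 26.2 and 25.4 CPM (0.44 ± 0.11, adjusted p = 0.067). 5 members were not called, with log2 fold changes of -0.24 for *pals-21*, 0.02 for *pals-40*, 0.13 for *pals-19*, 0.14 for *pals-18* and 0.22 for *pals-34*. Without double-mutant replicate 1 or replicate 2, 29 and 30 of the 37 were called higher, and 28 with library totals. Members of the family have similar sequences, and how kallisto split their reads could not be checked.

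The family started from a higher level in *rrf-3* and ended at a lower level in the double mutant than the matching groups with intact *rrf-3*. The summed level was 423 to 504 CPM in *rrf-3* and 246 and 262 CPM in wild type, and it was 6814 and 6855 CPM in the double mutant and 10394 to 10847 CPM in *pals-22*. The mean of *rrf-3* was above that of wild type in 31 of the 37 genes, the mean of the double mutant was below that of *pals-22* in 35, and both held in 29. The interaction, the change in the double mutant minus the change in *pals-22*, was called negative in 27 members and positive in 4. Over all genes tested it was called positive in 4080 (21.5%) and negative in 2974 (15.7%). For *pals-5* the interaction log2 fold change was -4.02 (adjusted p = 4.8e-05), with 0.76 and 1.05 CPM in wild type and 375 to 405 CPM in *pals-22*.

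All 12 response genes outside the family rose, with a median log2 fold change of 1.95, and all 12 were still called when either double-mutant library was left out. Their interaction was negative in 11 and positive in 1. *zip-1*, the bZIP transcription factor of the IPR, was the positive one. It was at 29.7, 24.8 and 37.2 CPM in *rrf-3*, below the 55.2 and 58.8 CPM of wild type, and at 148 and 146 CPM in the double mutant (2.27 ± 0.14, adjusted p = 1.04e-05, interaction 0.52, adjusted p = 0.084). *eol-1*, related to the decapping exonuclease DXO of mammals, rose from 42.2, 43.9 and 31.3 CPM to 555 CPM in both libraries (3.83 ± 0.15, adjusted p = 4.59e-07). *chil-27*, a chitinase-like gene induced by oomycetes, was nearly silent in *rrf-3* at 0.684, 0.51 and 0.299 CPM and reached 8.67 and 6.73 CPM (3.96 ± 0.26). The adjacent genes *F26F2.1*, *F26F2.3*, *F26F2.4* and *F26F2.5*, whose products have no role that could be stated here, rose by log2 fold changes of 1.12, 1.36, 1.59 and 2.43. *zip-1* overlaps 2 genes and *chil-27* 1, and whether the counting used strand is not given in the sources used here.

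**Figure D3:**
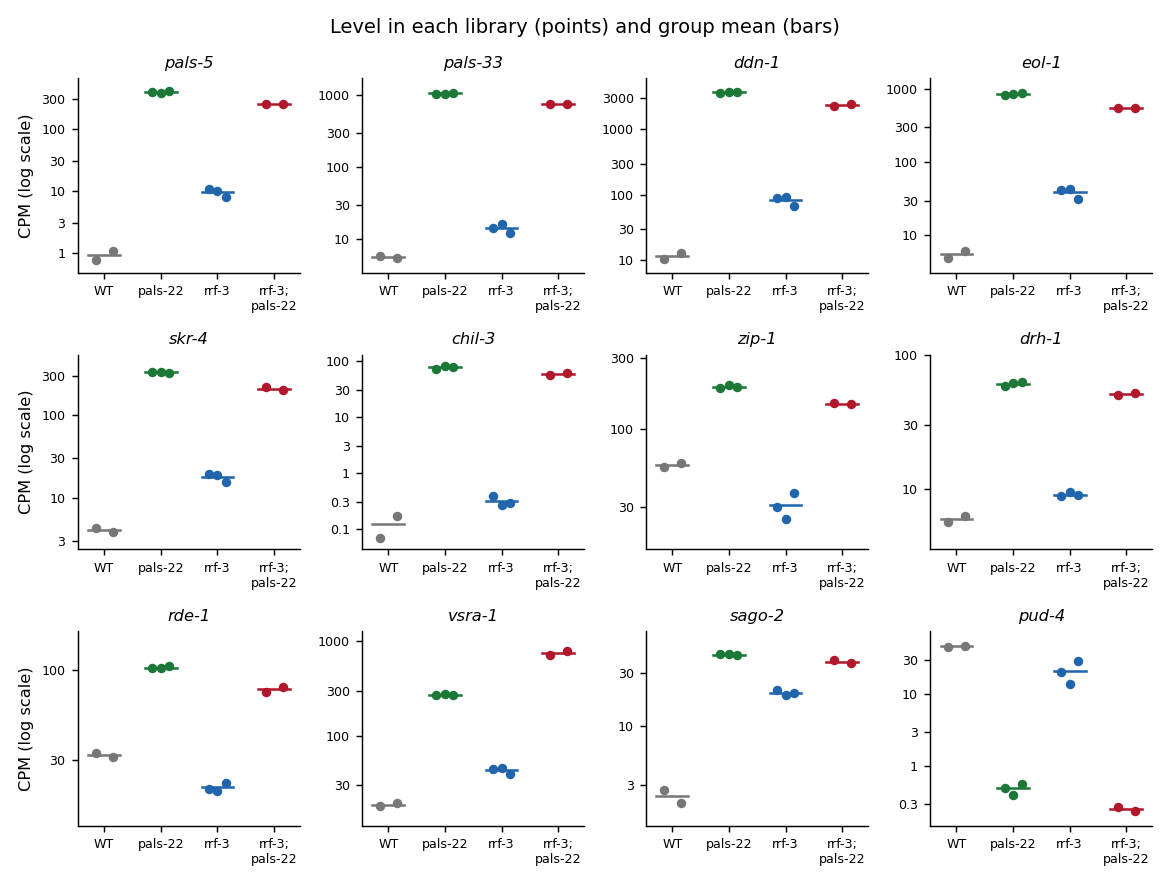
CPM (log axis) of 12 genes in each library; points are libraries, bars are group means, and grey, green, blue and red mark wild type, *pals-22*, *rrf-3* and *rrf-3; pals-22*. For *pals-5* the 2 double-mutant libraries sit at 251 and 247 CPM, above the 3 *rrf-3* libraries at 8.02 to 10.7 CPM and below *pals-22* at 375 to 405 CPM; *vsra-1* is the panel in which the double mutant is above *pals-22*.

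Promoter windows of some genes named in the text, picked by hand, are printed here because the core TGATAA, recognised by the GATA factors that drive intestinal genes, was more frequent in the changed genes. The windows are RefSeq sequences of WBcel235, run 5′ to 3′ on the strand of the gene from 250 bases before to 50 bases after its start, and capitals mark TGATAA or its reverse complement TTATCA. *eol-1* (V, minus strand, 13980688 to 13980987) and *chil-3* (II, minus strand, 9861445 to 9861744) rose, and *pud-4* (V, plus strand, 2326428 to 2326727) showed the largest called fall under the rule for named genes. *ddn-1* (V, minus strand, 8760467 to 8760766) rose and holds no match. Among windows looked at but not printed, those of *F26F2.1* and *skr-4* held 1 match each, and those of *zip-1* and *drh-1* held none.
eol-1: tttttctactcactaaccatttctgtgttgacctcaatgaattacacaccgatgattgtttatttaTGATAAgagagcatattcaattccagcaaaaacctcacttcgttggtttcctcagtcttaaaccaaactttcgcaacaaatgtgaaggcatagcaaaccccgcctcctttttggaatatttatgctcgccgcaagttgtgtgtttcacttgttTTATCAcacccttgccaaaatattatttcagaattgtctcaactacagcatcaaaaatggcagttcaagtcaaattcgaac
chil-3: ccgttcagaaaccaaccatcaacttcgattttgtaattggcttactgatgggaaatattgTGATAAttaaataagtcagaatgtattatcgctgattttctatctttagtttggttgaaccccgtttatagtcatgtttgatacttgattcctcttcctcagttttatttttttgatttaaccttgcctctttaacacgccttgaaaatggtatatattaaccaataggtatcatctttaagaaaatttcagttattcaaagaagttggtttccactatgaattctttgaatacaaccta
pud-4: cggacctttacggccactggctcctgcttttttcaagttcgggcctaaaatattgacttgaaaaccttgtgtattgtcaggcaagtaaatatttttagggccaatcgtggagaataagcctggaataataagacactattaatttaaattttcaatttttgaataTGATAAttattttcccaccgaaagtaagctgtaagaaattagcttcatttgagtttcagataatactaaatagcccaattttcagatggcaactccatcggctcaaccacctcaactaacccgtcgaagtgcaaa
ddn-1: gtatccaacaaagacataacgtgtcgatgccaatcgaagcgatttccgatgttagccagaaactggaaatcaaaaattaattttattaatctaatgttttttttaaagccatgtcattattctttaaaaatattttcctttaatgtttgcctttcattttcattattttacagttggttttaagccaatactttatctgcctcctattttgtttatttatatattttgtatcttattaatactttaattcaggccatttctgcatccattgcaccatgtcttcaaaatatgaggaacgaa

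The core on either strand was present in 51.1% of the windows of genes that rose by over 4-fold (191 of 374) and in 64.7% of those that fell by over 4-fold (11 of 17). Over all genes tested it was present in 30.3% (5706 of 18858). Among all genes called, the share was 45.0% for the higher and 51.0% for the lower genes, and in the *pals* family it was 43.2% (16 of 37). Bases A and T made up 66.7% of the windows of genes that rose by over 4-fold and 65.1% of all windows. A match is a description of the letters and not of binding.

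Components of ubiquitin ligases rose in part. Of 29 cullins and Skp1-related genes, 9 rose (31%, against 5.25% of all genes tested) and none fell, with a median log2 fold change of 0.09. *skr-4*, *skr-3* and *skr-5* encode Skp1-related adaptors that act with the cullin CUL-6. *skr-4* was at 19.6, 18.9 and 15.3 CPM in *rrf-3* and at 217 and 204 CPM in the double mutant (3.56 ± 0.11, adjusted p = 9.41e-08), and *skr-3* and *skr-5* rose by 1.20 and 1.64. *rcs-1*, the RING subunit of that ligase, rose from 36.6, 36.8 and 38.6 CPM to 192 and 193 CPM (2.37 ± 0.06, adjusted p = 2.71e-08). *cul-6* itself changed less, from 22.3, 27.2 and 18.5 CPM to 44.9 and 40.4 CPM (0.91 ± 0.14), and its interaction was -2.13, since *rrf-3* libraries were already above the 4.95 and 5.40 CPM of wild type.

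Substrate adaptors choose the proteins that such ligases mark. Of 156 F-box A genes, 46 rose (29.5%, against 5.25% of all genes tested), 24 of them by over 4-fold, and none fell. *fbxa-116* went from 0.963, 0.809 and 0.708 CPM to 54.6 and 62.6 CPM (6.16 ± 0.13, adjusted p = 1.50e-08), and *fbxa-75* from 10.1, 11.9 and 7.83 CPM to 198 and 187 CPM (4.28 ± 0.16). The median of the F-box A genes was 0.18, so most of them moved little. Of 72 F-box B genes none rose and 2 fell (2.78%, near the 2.21% of all genes tested), and none was called lower with either double-mutant library left out. Of 69 MATH and BATH domain genes, 23 rose (33.3%), 15 of them by over 4-fold, and 3 fell (4.35%). *math-34* was highest by fold, from 1.70, 1.26 and 2.07 CPM to 35.0 and 36.4 CPM (4.40 ± 0.16). Of 33 proteasome subunits, 4 rose (*pbs-3*, *pas-1*, *pas-2* and *pas-7*, by 0.29 to 0.32), with counts of 0 with library totals, 0 without double-mutant replicate 2 and 2 without *rrf-3* replicate 2. The 4 proteasome genes called were 12.1% of that list, against 5.25% of all genes tested. In *pals-22* against wild type 31 of the 33 were called higher, and the interaction was negative in 20.

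Chitinase-like genes were among the genes with the largest rise. Of 24, 13 rose (54.2%, against 5.25% of all genes tested) and none fell, with a median log2 fold change of 1.54. *chil-3* was at 0.39, 0.266 and 0.293 CPM in *rrf-3* and at 57.1 and 61.8 CPM in the double mutant (7.55 ± 0.15, adjusted p = 1.46e-08). *chil-18* started higher, at 7.30, 6.58 and 8.69 CPM, and reached 442 and 459 CPM (5.90 ± 0.13), and *chil-1* rose by 6.38 ± 0.20. *chil-18* overlaps 1 gene and *chil-1* 2. With either double-mutant library left out, 10 of the 24 were called higher.

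Among single genes, the largest fold changes with levels of at least 1 CPM and no overlap between the groups included several with no role that could be stated here. *F56A6.8* was at 0, 0.289 and 0 CPM in *rrf-3* and at 96.4 and 70.6 CPM in the double mutant (fitted log2 fold change 9.85 ± 0.68), and *F56A6.5* at 1.75, 1.81 and 1.13 CPM and at 441 and 471 CPM (8.20 ± 0.18, adjusted p = 1.57e-08). *Y2H9A.6* rose by 6.48 ± 0.14, and *dod-23*, named as a gene downstream of *daf-16*, by 6.69 ± 0.25. The pseudogenes WBGene00008842 and WBGene00017415 rose by 8.04 ± 0.14 and 6.58 ± 0.16. 3 genes of this rank were at 0 in all 3 *rrf-3* libraries. In the double mutant *nspa-2* was at 1.84 and 1.94 CPM, the pseudogene WBGene00023334 at 1.68 and 0.734 CPM and *Y45F10B.3* at 0.118 and 2.14 CPM. These genes are shorter or little longer than the fragments, estimated at 180 to 210 bases in the *rrf-3* libraries. The level of 1 read could therefore not be estimated for them, and no fold is given. *vit-2*, a yolk protein gene, and *F08B4.8* had their levels mostly in double-mutant replicate 2, at 19.3 and 7.13 CPM against 1.26 and 0.226 CPM in replicate 1.

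By absolute difference, 6 genes stood out in the double mutant. *Y105C5A.12* was at 1821, 1276 and 2377 CPM in *rrf-3* and at 12557 and 12486 CPM in the double mutant (2.78 ± 0.22, adjusted p = 6.18e-05). *C08E3.13* was at 1081, 726 and 1459 CPM and at 7600 and 7753 CPM (2.82 ± 0.24). Both were below their wild-type levels in *rrf-3*, where wild type had 2902 and 3008 CPM of *Y105C5A.12* and 3006 and 3094 CPM of *C08E3.13*. *Y68A4A.13* rose from 132, 126 and 129 CPM to 4754 and 4904 CPM (5.23 ± 0.17), and *F20E11.17* from 107, 113 and 77.7 CPM to 2443 and 2308 CPM (4.58 ± 0.18). *C08E3.1* rose by 3.86 ± 0.45 and *ddn-1* by 4.83 ± 0.16, the latter from 88.6, 94.3 and 66.8 CPM to 2294 and 2434 CPM. *Y105C5A.12* overlaps *Y105C5A.13*.

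Genes that rose by over 4-fold often lay next to each other. Of the 374 that could be placed, 207 (55.3%) had an adjacent tested gene that also rose by over 4-fold, against 3.47% of all genes tested. An adjacent gene called higher at any size was found for 255 (68.2%), against 9.32%. There were 25 runs of at least 3 consecutive genes, with 125 genes in all. The longest held 16 genes on chromosome V (8723370 to 8766038), with *droe-8* and *ddn-1* among them, and the next 15 genes on chromosome I (13104251 to 13144623), 13 of them *pals* genes. Runs of 8 were made by *chil* genes with *C08H9.18* on chromosome II (9851471 to 9866399) and by *fbxa-164*, *fbxa-165*, *fbxa-166* and *fbxa-158* with *C08E3.13* and *C08E3.1* on the same chromosome (1612788 to 1634121). By chromosome, 3.08% of the tested genes of V rose by over 4-fold, 2.54% of II, 2.09% of IV, 1.21% of III, 1.14% of I and 1.02% of X. Adjacent family members have similar sequences and can share reads. A run on chromosome IV (15499 to 32380) consisted of repeated entries named *trpl-3* and *Y38C1AB.3*. A run on X (3441839 to 3446935) included *ZK813.7*, at 3.33 CPM in double-mutant replicate 1 and 22.2 CPM in replicate 2.

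**Figure D4:**
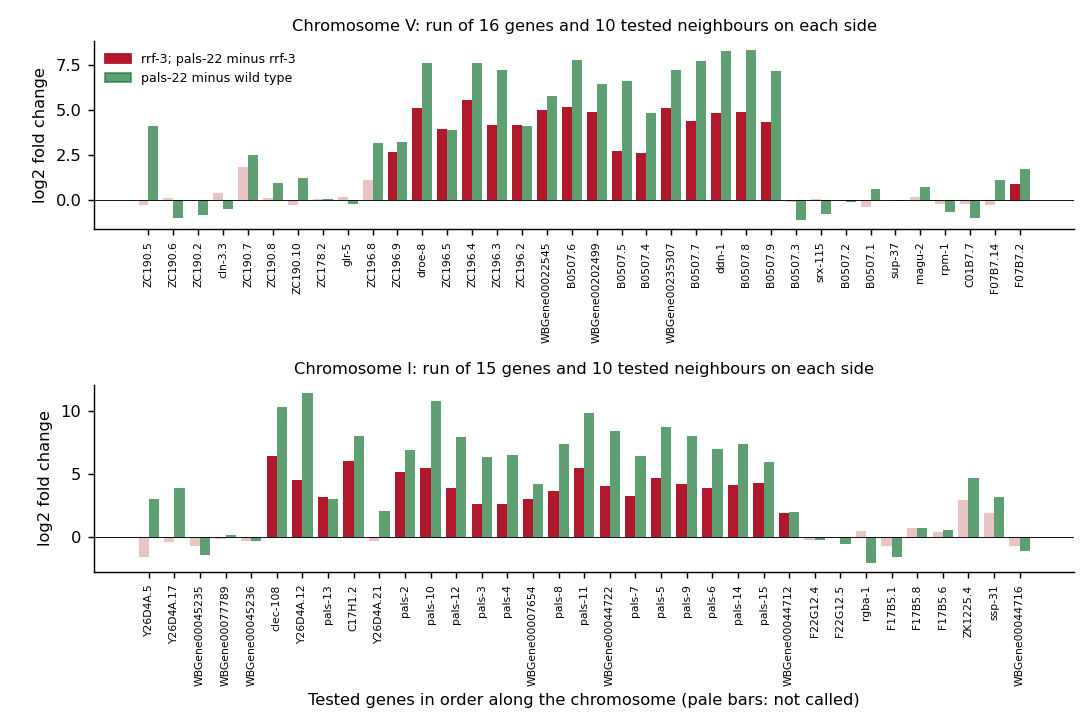
Log2 fold change of consecutive tested genes along the 2 longest runs, with 10 tested neighbours on each side; dark red bars are *rrf-3; pals-22* minus *rrf-3* (pale where not called) and green bars *pals-22* minus wild type. The runs hold 16 genes on chromosome V and 15 on chromosome I. By definition each ends at a gene that was not called higher by over 4-fold. A further run of 4 genes ends at 13103119, shortly before the run on chromosome I.

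Some genes of the small RNA pathways rose. Of 4 genes for recognition of double-stranded RNA, 2 rose, where 5.25% of all genes tested did. *drh-1*, the homolog of mammalian RIG-I, was at 8.78, 9.40 and 8.98 CPM in *rrf-3* and at 50.4 and 51.9 CPM in the double mutant (2.5 ± 0.07, adjusted p = 3.40e-08). *rde-1*, the Argonaute that receives primary siRNAs, was at 20.4, 19.9 and 22.2 CPM and at 75.4 and 80.1 CPM (1.90 ± 0.07, adjusted p = 2.02e-07). The log2 fold changes of the others were -0.21 ± 0.15 for *dcr-1*, which encodes Dicer, and -0.01 ± 0.09 for *rde-4*, its double-stranded RNA-binding partner, and neither passed the test.

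Of 17 genes for amplification of siRNAs, 4 rose (23.5%, against 5.25% of all genes tested) and none fell. *ekl-1* and *drh-3*, partners of the RNA-dependent RNA polymerases, rose from 19, 19.1 and 17.1 CPM to 76.4 and 80.2 CPM (2.09 ± 0.07) and from 6.36, 6.15 and 6.99 CPM to 13 and 13.9 CPM (1.05 ± 0.08). The somatic polymerase gene *rrf-1* rose by 0.68 ± 0.13 and the helicase gene *rde-12* by 0.64 ± 0.12. None of the 8 genes of the 26G pathway was called, and their median was 0.02. *ergo-1*, the Argonaute that binds 26G siRNAs, was at 14.3, 16.18 and 16.3 CPM and at 13.2 and 14.2 CPM, and *eri-1*, an exonuclease, at 9.32, 9.12 and 9.68 CPM and at 9.81 and 9.71 CPM. None of 5 nuclear RNAi genes and neither of 2 RNA editing genes was called. Of 6 genes of systemic RNAi, 2 rose with all libraries and 1 with either double-mutant library left out: *sid-5*, an endosomal protein needed to pass silencing between cells, from 54.9, 54.4 and 50.7 CPM to 192 and 194 CPM (1.86 ± 0.09), and *sid-2*, which takes up RNA from the gut lumen, by 0.43 ± 0.10. *sid-2* overlaps *dyf-2*.

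Of 19 Argonaute genes tested, 6 rose (31.6%, against 5.25% of all genes tested) and none fell, while the median was near that of all genes. *vsra-1*, a close relative of *csr-1*, was at 44.7, 45.7 and 38.7 CPM in *rrf-3* and at 712 and 794 CPM in the double mutant (4.13 ± 0.10, adjusted p = 1.93e-08). In *pals-22* alone it was at 267 to 279 CPM and in wild type at 17.8 and 19.4 CPM, so that both *rrf-3* groups were above their counterparts, and the interaction of 0.26 was not called (adjusted p = 0.18). *sago-2*, an Argonaute of secondary siRNAs, showed another pattern. It was at 20.9, 18.9 and 19.6 CPM in *rrf-3* and at 38.8 and 36.6 CPM in the double mutant (0.93 ± 0.09, adjusted p = 2.93e-04), against 2.73 and 2.08 CPM in wild type and 43.0 to 44.0 CPM in *pals-22*, with an interaction of -3.25 (adjusted p = 3.2e-05). The related *ppw-1* rose from 47.5, 41.2 and 41.8 CPM to 154 and 135 CPM (1.73 ± 0.09), with an interaction of -1.87. *csr-1* and *sago-1* rose by 1.22 ± 0.12 and 0.56 ± 0.08. *sago-2* overlaps *eme-1*, and *csr-1* overlaps *frpr-10*.

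Among genes with at least 1 CPM in *rrf-3* and no overlap between the groups, the largest falls were those of the *pud* genes, small proteins first named for their rise in *daf-2* mutants. Of 6 tested entries 5 fell, with a median log2 fold change of -4.82, and 5 were called lower with either double-mutant library left out. *pud-4* was at 20.6, 13.7 and 28.9 CPM in *rrf-3* and at 0.273 and 0.236 CPM in the double mutant (-6.36 ± 0.40, adjusted p = 1.01e-05). *pud-3* was at 3.41, 1.59 and 6.33 CPM and at 0.0614 and 0.0737 CPM (-5.60 ± 0.81). *pud-1.2* was at 79.8, 42.9 and 114 CPM and at 6.27 and 6.17 CPM (-3.66 ± 0.38), and *pud-2.2*, which has 2 entries with the same values, at 56.7, 36.9 and 109 CPM and at 4.23 and 3.93 CPM (-4.04 ± 0.45). In *pals-22* against wild type all 6 were called lower, and no interaction was called. *pud-1.1* was not called: it was near 0 in *rrf-3* replicate 1, at 2.28 and 35.0 CPM in the others and at 0 in both double-mutant libraries. The *pud* genes come in near-identical pairs, and how their reads were split is uncertain.

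Most other falls were smaller and the named ones included genes of digestion and metabolism. *pho-11*, a predicted acid phosphatase, was at 133, 108 and 178.9 CPM in *rrf-3* and at 28.7 and 38.0 CPM in the double mutant (-2.07 ± 0.29, adjusted p = 0.0029), and it overlaps *C05C10.3*. *cpr-2*, a cathepsin B-like protease gene, fell by 3.20 on the log2 scale, *lipl-3*, a lysosomal lipase gene, by 2.47, and *acox-1.4*, an acyl-CoA oxidase gene, by 1.67. *comt-4*, *cest-1.2*, *T27A3.8* and *H39E23.3* fell by 2.66, 1.61, 2.09 and 1.65 on that scale. By absolute difference the lower genes were *ZC395.5* (268, 330 and 425 CPM to 188 and 161 CPM), *clec-1* (320, 220 and 276 CPM to 114 and 151 CPM), *asns-2*, an asparagine synthetase gene, *pho-11*, *hel-1*, an RNA helicase gene, and *C46G7.1*. The log2 fold changes of *asns-2* and *hel-1* were -0.51 ± 0.14 and -0.36 ± 0.10, and both genes were still above their wild-type levels.

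Among detoxification genes and lectins, the shares called are set against 2.21% lower and 5.25% higher over all genes tested. Of 71 cytochrome P450 genes 5 fell (7.04%) and 1 rose (1.41%), with *cyp-35B1* falling from 4.82, 4.67 and 6.65 CPM to 1.36 and 1.63 CPM (-1.85 ± 0.19, adjusted p = 4.19e-04). Of 64 UDP-glucuronosyltransferase genes 8 fell (12.5%) and 1 rose (1.56%). Of 159 C-type lectin genes 17 fell (10.7%) and 12 rose (7.55%, near the share of all genes). *clec-186* fell from 6.20, 4.43 and 7.53 CPM to 0.543 and 0.803 CPM (-3.18 ± 0.28), while *clec-82* rose by 3.07 and *clec-60* by 3.47. The falls of these 3 families were fewer without double-mutant replicate 2, at 1, 2 and 4 genes, and without replicate 1, at 2, 3 and 7 genes. They were also fewer without *rrf-3* replicate 1, at 2, 5 and 8 genes. None of 21 antimicrobial peptide genes and none of 7 inducible heat shock genes was called.

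**Figure D5:**
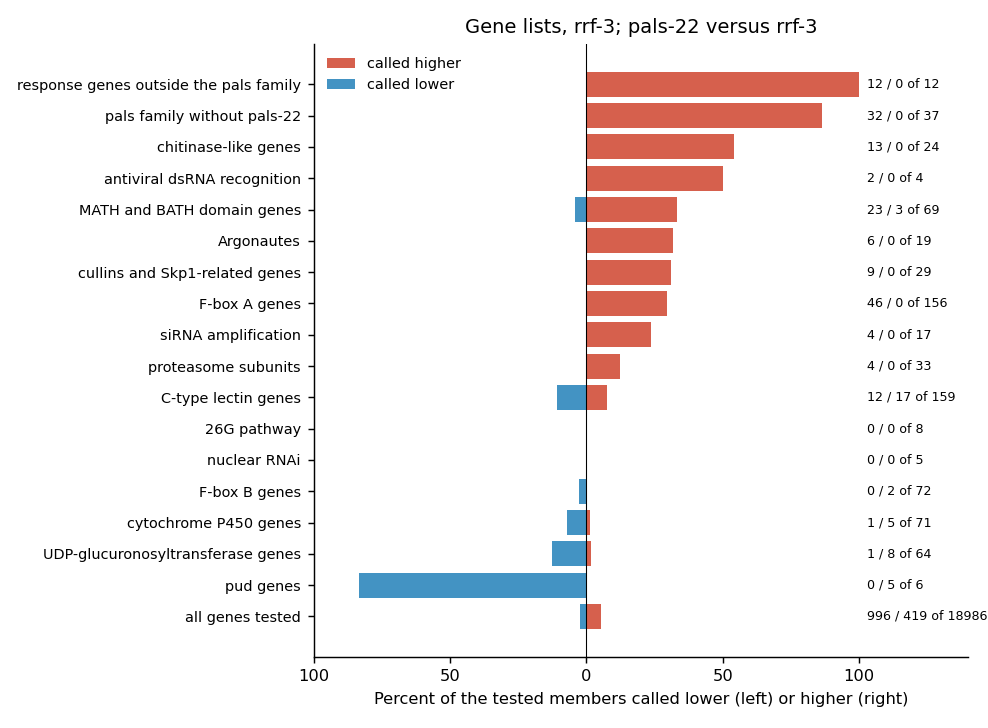
Percent of the tested members of each gene list called higher (red, right) or lower (blue, left) in *rrf-3; pals-22* against *rrf-3*, with the counts of higher and lower calls and of members at the right edge. All 12 response genes and 32 of 37 *pals* genes were higher and 5 of 6 *pud* entries lower, beside 996 and 419 of 18986 genes tested.

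The filter on low values left untested 14 F-box A, 32 F-box B, 4 MATH and BATH, 81 C-type lectin and 2 chitinase-like genes, 1 Argonaute gene and 930 pseudogenes, while all *pals* genes passed it. None of 78 cytosolic ribosomal protein genes was called, with log2 fold changes between -0.12 and 0.22, although 59 were called lower in *pals-22* against wild type. None of 68 histone genes and none of 6 furrow collagens was called. Of 138 neuropeptide genes 4 rose (2.90%) and 2 fell (1.45%), and of 228 nuclear hormone receptor genes 7 rose (3.07%) and 3 fell (1.32%). Of 1173 annotated pseudogenes tested, 72 rose (6.14%) and 18 fell (1.53%). Over all genes tested the shares were 5.25% higher and 2.21% lower, so those of the pseudogenes were near them. Tissue markers were examined to check the makeup of the samples. In *pals-22* against wild type, 4 pharynx, 2 intestine and 2 hypodermis markers were called higher. Called lower there were 3 intestine, 2 hypodermis and 2 neuron markers. Negative interactions were called in 4 pharynx, 1 intestine and 1 hypodermis marker, and positive ones in 4 neuron, 3 intestine and 2 hypodermis markers. The calls that follow are those of the main contrast. Among markers of intestine (6), body wall muscle (5), pharynx (5), neurons (6) and hypodermis (6), 1 was called: the intestinal GATA factor gene *elt-2*, at 20.6, 16.8 and 22.3 CPM in *rrf-3* and 35.9 and 33.2 CPM in the double mutant (0.80 ± 0.13, adjusted p = 0.006). Of 8 germline markers, *glh-1* fell by 0.64 on the log2 scale, and none of 12 embryo markers was called. Of 147 cuticle collagens 1 fell and 9 rose (6.12%, near the share of all genes), 7 being the adult-type collagens, picked after seeing values. Without double-mutant replicate 2 none was called higher, and without replicate 1 there were 19. Counts were 1 without *rrf-3* replicate 1 or 2 and 5 without *rrf-3* replicate 3. Of 6 vitellogenins 3 rose, 0 without double-mutant replicate 2 or *rrf-3* replicate 1 and 1 without *rrf-3* replicate 2. The median log2 fold change of 53 sperm genes was 3.26 with both double-mutant libraries, with none called. It was 4.20 with 31 called without replicate 1, and it turned to -0.84 with none called without replicate 2.

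A small group changed in the double mutant with little change in *pals-22* alone. It was taken as the genes called by over 2-fold against *rrf-3*, not called and under 0.5 on the log2 scale for *pals-22* against wild type, and with a called interaction, and it held 24 genes, 15 higher and 9 lower. Some members rest on 1 library or on low levels. *ZK813.7*, the largest rise of the group, was at 3.33 and 22.2 CPM in double-mutant replicates 1 and 2. It was at 2.08 to 2.37 CPM in *rrf-3*. The largest fall, that of WBGene00023392, set 0 in both double-mutant libraries against 0.710 to 0.902 CPM in *rrf-3*. The examples that follow were chosen after their values were seen. *C15C7.4* was at 32.7, 33.8 and 32.1 CPM in *rrf-3* and at 70.8 and 82.8 CPM in the double mutant (1.22 ± 0.10), beside 73.2 and 87.8 CPM in wild type and 88.3 to 99.0 CPM in *pals-22* (0.20). Its level in the double mutant was therefore near that of the groups with intact *rrf-3*. *txt-3* and *fbxa-192* also had their lowest group means in *rrf-3*, with log2 fold changes of 1.34 and 1.66 in the double mutant and 0.03 and -0.05 in *pals-22*. *sdz-1* and *clec-4* were highest in *rrf-3* and fell by 1.06 and 1.07 on the log2 scale, with 0.00 and 0.05 in *pals-22*. The interaction calls rest in part on the 2 wild-type libraries, which separated from the others on the second principal component. Without wild-type replicate 2 the positive calls numbered 2561, without double-mutant replicate 2 they numbered 2362, and with library totals 1124.

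The largest interactions among genes with a mean of at least 1 CPM in some group were in sparse genes. *Y19D2B.1* was at 28.5, 31.1 and 2.89 CPM in *pals-22*, at 0 in wild type and in the double mutant, and at 0.303 to 0.676 CPM in *rrf-3*. *K01A12.4* was at 4.85 to 14.7 CPM in *rrf-3* and 12.3 and 16.8 CPM in the double mutant, but at 1.26, 0 and 0.000315 CPM in *pals-22*. Most others of this rank were pseudogenes near 0 CPM in several libraries, and for short genes the level of 1 read is uncertain.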

How the data were processed

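Poly(A) RNA of whole L1 worms was sequenced in 10 N2 libraries (2 wild type, 3 *pals-22(pig26)*, 3 *rrf-3(pk1426)*, 2 double mutant), grouped by the genotype in the labels. The authors ran kallisto within RNAlysis and deposited estimated counts, summed and scaled per gene. The transcriptome release is not given in the sources used here. Of the values 91.9% were not whole, and low values of single-transcript genes came within 0.1 of whole reads in 68.8 to 74.1% of cases after multiplication by effective transcript length, so they were read as length-adjusted. They were rounded and fitted in R 4.3.3 with edgeR 4.0.16 (quasi-likelihood test, TMM, genes kept by filterByExpr at 10 counts per library and 15 in total), all 10 libraries together, 1 group per genotype. Adjusted p-values are Benjamini-Hochberg over 18986 genes of 22013 entries, two-sided, called under 0.1, the study's threshold.

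Alternatives were DESeq2 1.42.0, limma-trend (limma 3.58.1), other scalings and filters, the compared groups alone, a replicate block and leaving out each library. The procedure was tested on simulated data. Symbols and positions are from Ensembl release 115 (WBcel235), which lacks 171 entries. Gene lists were made by symbol, and the members and lists were chosen with earlier results of these data known. 17 list names have no entry in the table. Named genes were the 15 per direction with the largest fold change among called genes without overlap between groups and at least 1 CPM in the higher group, the 6 per direction with the largest difference in CPM, the 8 per direction with the largest interaction, list members, and *pals-22*, *pals-25* and *rrf-3*. No replicate libraries agreed within counting noise. Other libraries of the series are not used here.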

Additional observations from a re-analysis of the deposited data

Results flagged for a closer look

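The change with *pals-22(pig26)* differed between libraries with and without *rrf-3* in 4080 genes in the positive and 2974 in the negative direction. These were called by the interaction term of the same edgeR fit (adjusted p under 0.1). The libraries also differed in later-stage transcripts, whose part in these counts was not tested. Values are interaction log2 fold changes, the change in *rrf-3; pals-22* against *rrf-3* minus the change in *pals-22* against wild type, for the genes named above. They rest on 2 wild-type, 3 *pals-22*, 3 *rrf-3* and 2 double-mutant libraries.

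A smaller rise in the double mutant gave negative values for *pals* and response genes. They were -4.02 for *pals-5*, -3.21 for *pals-14*, -1.82 for *pals-33*, -3.43 for *eol-1*, -4.09 for *chil-27*, -1.60 for *chil-3*, -1.60 for *F26F2.1*, -1.58 for *F26F2.3*, -2.34 for *F26F2.4* and -2.25 for *F26F2.5*. In the ubiquitin ligase genes they were -2.81 for *skr-4*, -2.92 for *skr-5*, -0.85 for *skr-3*, -2.13 for *cul-6*, -0.34 for *rcs-1*, -2.50 for *fbxa-116*, -4.25 for *fbxa-75* and -0.28 for *pas-2*. In the small RNA genes they were -3.25 for *sago-2*, -1.87 for *ppw-1*, -0.85 for *drh-1*, -0.80 for *ekl-1* and -0.54 for *sid-2*. Other genes that rose had -5.11 (*F20E11.17*), -3.49 (*ddn-1*), -2.78 (*dod-23*), -2.09 (*Y2H9A.6*), -1.69 (*F56A6.5*), -1.52 (WBGene00008842) and -0.63 (*Y68A4A.13*).

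Values were positive for *zip-1* (0.52), *math-34* (0.79), *pals-25* (0.27), *pals-18* (0.86), *pals-19* (0.49), *eri-1* (0.36), *clec-82* (1.49), *fbxa-192* (1.70), *C15C7.4* (1.02), *txt-3* (1.31), *vit-2* (4.63) and *K01A12.4* (4.35). A smaller fall in the double mutant gave positive values for *pho-11* (1.54), *acox-1.4* (1.42), *cest-1.2* (1.31), *cyp-35B1* (1.05), *clec-186* (1.14), *ZC395.5* (1.73) and *C46G7.1* (1.12). Values were negative for *asns-2* (-1.76), *hel-1* (-0.49), *glh-1* (-1.81), *sdz-1* (-1.07) and *clec-4* (-1.12), and -20.4 for *Y19D2B.1*, whose fitted value depends on libraries at 0. The values of *dpy-19* and *F22B7.1* were 3.41 and 1.83.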

How the results depend on the processing

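Over 60 values of single genes and 949 alternatives, 807 kept the direction and the side of the threshold, 141 kept the direction and lost the call, and 1 reversed: the interaction of WBGene00012817 went from 6.45 to -0.21 without wild-type replicate 2 and to 7.45 without replicate 1. Of 332 alternatives for counts, 281 stayed within 1.5 times. Lower calls were 788 with DESeq2, 719 with library totals and 218 at an adjusted p under 0.05. With library totals, positive interactions were 1124, genes lower in *pals-22* against wild type 2690, higher proteasome genes 0, and 49.4% of calls were higher against 70.4%. With the compared groups alone, counts were 1 for higher proteasome, 4 for lower UDP-glucuronosyltransferase and 4 for higher collagen genes. Higher collagen genes were 15 with DESeq2, 1 with limma-trend and 1 at 0.05, where lower lectin genes were 11 and lower P450 genes 3. The causes were not tested. With approximate reads in place of the length-scaled values, an alternative chosen after seeing the data, 1143 genes were higher and 583 lower.

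Leaving out 1 library gave 616 to 1659 higher and 82 to 682 lower genes, and 2362 to 4677 positive interactions. Counts were 0 to 5 for higher proteasome genes, 4 to 16 for lower lectin, 2 to 11 for lower UDP-glucuronosyltransferase, 1 to 6 for lower P450, 0 to 19 for higher collagen genes and 0 to 3 for higher vitellogenins. Where 1 double-mutant library was left, its spread was taken from the other groups.

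Whether the replicate numbers pair the libraries could not be decided. Deviations of same-numbered libraries correlated at 0.084 and 0.085 by title and at -0.085 and -0.010 by library name. The deviations of the 2 double-mutant libraries mirror each other, so these values are not independent. The replicate block gave 758 higher and 218 lower genes with title numbers, and 716 and 215 with the numbers in the library names. In that order of numberings, it gave 10 and 11 lower lectin, 1 and 1 higher collagen and 0 and 0 higher vitellogenin genes. With title numbers it gave 1 higher proteasome and 4 lower UDP-glucuronosyltransferase genes. Of 120 single-gene values with a block, 85 kept their call.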

Other observations

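*dpy-19*, which encodes a C-mannosyltransferase needed for neuroblast migration, was raised in the double mutant alone. It was chosen after its values were seen. It was at 58.7 and 60.4 CPM in the double mutant, at 7.84, 8.35 and 7.16 CPM in *rrf-3*, at 8.11, 8.56 and 8.58 CPM in *pals-22* and at 12 and 11.5 CPM in wild type. The log2 fold change against *rrf-3* was 2.94 ± 0.07 (SE, adjusted p = 2.81e-08, edgeR) and that of *pals-22* against wild type -0.48. *F22B7.1*, which lies within *dpy-19* (chromosome III, 8665338 to 8667365 within 8659872 to 8667482, WBcel235), was at 47.5 and 46.6 CPM in the double mutant and at 17.7, 20.9 and 19 CPM in *rrf-3* (1.30 ± 0.08). It was at 41.2 and 38.1 CPM in wild type, so that its level in the double mutant was not unusual among the 4 genotypes. The reads of these overlapping genes cannot be told apart with certainty.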
